A study of Mus with 4 samples.

Results

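The extracellular matrix genes described here encode collagens, laminins, nidogens, agrin, fibronectin, elastic fibre and matricellular proteins, and the integrin subunits that bind cells to them. They come from a list of 47 mouse genes grouped by what they encode, which was drawn up with earlier results of these arrays known. Of these, 42 genes had at least 1 probe whose accession matched the symbol, with 65 probes among the 41174 probes that are not controls. They comprise 7 fibrillar collagens, 6 basement membrane collagens, 4 other collagens, 6 laminin chains, 3 nidogen or proteoglycan genes, 8 fibronectin, elastic fibre and matricellular genes, and 8 integrin subunits. *Col6a3*, *Col12a1*, *Lama5*, *Hspg2* and *Vcan* had no matched probe and were not analysed here.

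RNA came from *Six2*-positive cap mesenchyme, the nephron progenitors of the embryonic kidney, which the study sorted by FACS for EGFP at E15.5. *Mut* cells carried the *Six2* Cre EGFP transgene with PRR flox/flox, and *WT* cells the same transgene with PRR+/+, so that Cre was present in both groups. PRR, the prorenin receptor, is encoded by *Atp6ap2* and also associates with the vacuolar proton pump. Cre and the EGFP used for the sort have the same *Six2* driver, and each sample is a pool of kidneys, so no value belongs to a single embryo. On arrays 1, 2 and 3 a *Mut* pool in Cy3 was hybridized against the *WT* pool of the same number in Cy5. Array 4, called the *WT* vs *WT* array, held *WT* pool 2 in Cy3 and *WT* pool 1 in Cy5. The dyes were not exchanged between *Mut* and *WT*, and genotype and dye therefore cannot be told apart from arrays 1 to 3 alone.

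Collagens assemble from chains that wind around each other. Types I and III form the fibrils of interstitial connective tissue, whereas type IV builds the sheet-like network of basement membranes together with laminins, nidogens and heparan sulfate proteoglycans. Laminins are assembled from an alpha, a beta and a gamma chain, and integrins are pairs of an alpha and a beta chain that connect the matrix to the cytoskeleton. In the developing kidney the cap mesenchyme lies against the basement membrane of the ureteric bud, and progenitors lay down their own basement membrane when they turn into an epithelium, while the fibrillar collagens are best known as products of stromal cells.

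On arrays 1 to 3 the share of probes with a signal well above background ran from 45.1% to 49.5% for *Mut* and from 54.1% to 58.3% for *WT*, and 36 of the 42 matrix genes had one for both on every array. The probe of the targeted gene, *Atp6ap2*, had a log2 *Mut*/*WT* of -0.08, -0.19 and -0.25 on arrays 1, 2 and 3 (mean -0.17, adjusted *P* = 0.0352) and *WT* pool 2 over *WT* pool 1 gave -0.19 on array 4. This probe did not separate genotype from dye, its place relative to the deleted exons is not given in the sources used here, and the direction of every ratio below rests on the dye labels.

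All differences below are log2 ratios of Cy3 over Cy5 after background correction and loess normalization within each array, so that a value above 0 is a higher signal in *Mut* on arrays 1 to 3. Where a gene has more than 1 probe, the brightest is used. A probe was called when limma gave an adjusted *P* under 0.05 and the change was over 1.5-fold (0.585 on the log2 scale). SE is the standard error from limma, which moderates the spread of each probe towards that of all probes. Levels are normalized log2 signals of single channels, to be compared for the same probe only and not between probes. On arrays 1 to 3 the *Mut* and *WT* levels also differ in dye, so groups that do not overlap there differ in genotype and dye alike. RNA of pooled cells was measured, so fewer cells of a type and less RNA per cell cannot be told apart.

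Of the 65 matrix probes 4 were called higher in *Mut*, against 0.554% of all probes, and 0 were called lower, against 1.46% of all probes. At 1 probe per gene these were 4 of 42 genes higher, with 0.44% of all 16358 named genes called higher and 1.59% called lower. The 4 genes were *Col1a1*, *Col1a2* and *Col3a1*, the chains of the interstitial type I and III collagens, and *Lamc1*, the laminin gamma chain shared by most laminins. Without the fold minimum, 18 matrix probes were higher and 15 lower at an adjusted *P* under 0.05, where 13.2% of all probes were higher and 16.4% lower. For genes these counts were 15 higher, 7 lower and 20 not past the adjusted *P*, against 14.4% and 18.6% of all genes. At an unadjusted *P* under 0.05 in limma, 20 matrix probes were higher, 4 of them by over 1.5-fold, and 18 were lower, 0 of them by over 1.5-fold. The share of all probes at an unadjusted *P* was not counted, here or in the other fits below. The median log2 *Mut*/*WT* of the 42 genes was 0.03, and that of all named genes was -0.00. The matrix genes thus moved in both directions and by different amounts, with their median close to that of all genes.

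**Figure D1:**
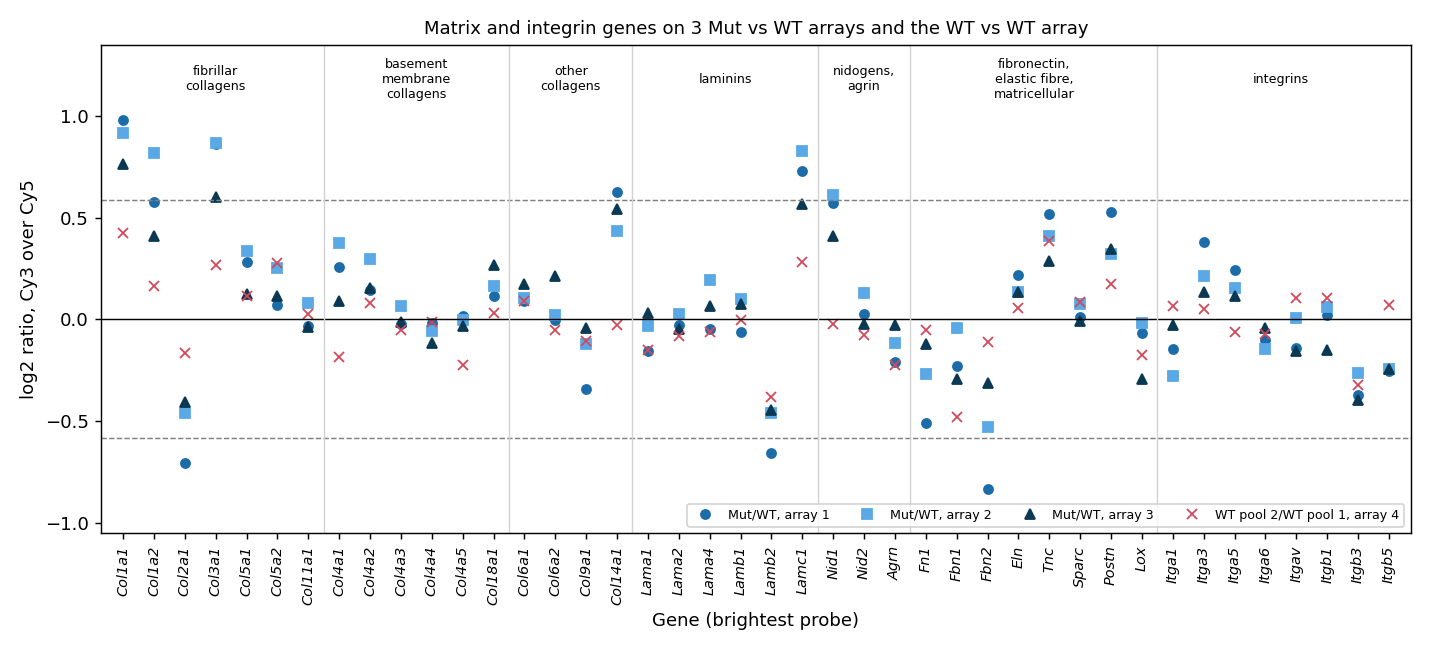
Each column is 1 of the 42 matrix genes at its brightest probe, grouped by role, and the vertical axis is the log2 ratio of Cy3 over Cy5. Blue symbols are *Mut*/*WT* on arrays 1, 2 and 3, red crosses are *WT* pool 2 over *WT* pool 1 on array 4, and dashed lines mark 1.5-fold. *Col1a1*, *Col3a1* and *Lamc1* lie above the other genes on all 3 arrays, and their crosses lie between 0 and the *Mut*/*WT* values. With median centring in place of loess 20 of the 42 genes change direction.

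Among the fibrillar collagens, *Col1a1*, the alpha 1 chain of type I collagen, had the largest difference. Its level was 10.95, 10.91 and 10.70 in *Mut* pools 1, 2 and 3 and 9.97, 10.00 and 9.93 in *WT* pools 1, 2 and 3 (probe A_52_P525107). Every *Mut* pool was above every *WT* pool of arrays 1 to 3, and the *Mut*/*WT* ratios were 0.98, 0.91 and 0.76. The mean of 0.89 (SE 0.057, n = 3), or 1.85-fold, had an adjusted *P* of 1.945e-06. On the *WT* vs *WT* array *WT* pool 2 in Cy3 was at 10.68 and *WT* pool 1 in Cy5 at 10.26, a ratio of 0.43 between pools of the same genotype. *WT* pool 2 itself was therefore 0.69 higher in Cy3 on array 4 than in Cy5 on array 2, just under the lowest *Mut* pool.

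*Col3a1* encodes the chain of type III collagen, which accompanies type I in distensible tissue. It was at 11.43, 11.30 and 10.98 in the *Mut* pools and at 10.57, 10.44 and 10.38 in the *WT* pools (probe A_51_P515605). The groups did not overlap, with ratios of 0.86, 0.87 and 0.60 and a mean of 0.78 (SE 0.062, n = 3, adjusted *P* = 8.58e-06). On array 4 *WT* pool 2 in Cy3 reached 10.96, just under the lowest *Mut* pool, and the ratio of the *WT* pools was 0.27. *Col1a2*, which encodes the alpha 2 chain of type I collagen, was at 12.56, 12.57 and 12.33 in *Mut* and at 11.98, 11.76 and 11.92 in *WT* (probe A_51_P182303). Its ratios of 0.58, 0.82 and 0.41 averaged 0.60 (SE 0.070, n = 3, adjusted *P* = 0.0001004), just inside the fold minimum, and without array 2 the mean of 0.49 fell short of it. *WT* pool 2 in Cy3 on array 4 was at 12.37, above *Mut* pool 3, so that for *Col1a2* the groups overlapped once that array was included. Both chains of type I collagen were higher in *Mut* on each array. The *Col1a1* ratio exceeded that of *Col1a2* by 0.40, 0.10 and 0.35 on arrays 1 to 3 and by 0.26 on array 4.

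*Col2a1*, the cartilage collagen, differed in the other direction. It was at 10.01, 9.98 and 10.07 in the *Mut* pools and at 10.72, 10.44 and 10.47 in the *WT* pools. All *Mut* pools were below all *WT* pools, with ratios of -0.71, -0.46 and -0.41 (mean -0.52, SE 0.064, adjusted *P* = 0.000124), short of 1.5-fold, and its second probe had a mean of -0.46. The *WT* pools differed by -0.17 on array 4, where *WT* pool 2 was at 10.12 in Cy3. *Col5a1*, which helps to start type I fibrils, passed the adjusted *P* at 0.25 without reaching the fold minimum, and its direction turned to -0.31 with median centring. The other fibrillar genes, *Col5a2* (0.15) and *Col11a1* (0.00), did not pass the adjusted *P*, and both turned with median centring and with the dye term. In all, 3 of the 7 fibrillar collagens were called higher, against 0.44% of all named genes. With the dye term *Col1a1*, *Col3a1* and *Col1a2* were at 0.46, 0.51 and 0.43. At the adjusted *P* with no fold minimum 4 were higher and 1 lower, and 2 did not pass. Among all named genes 14.4% were higher and 18.6% lower at that threshold.

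**Figure D2:**
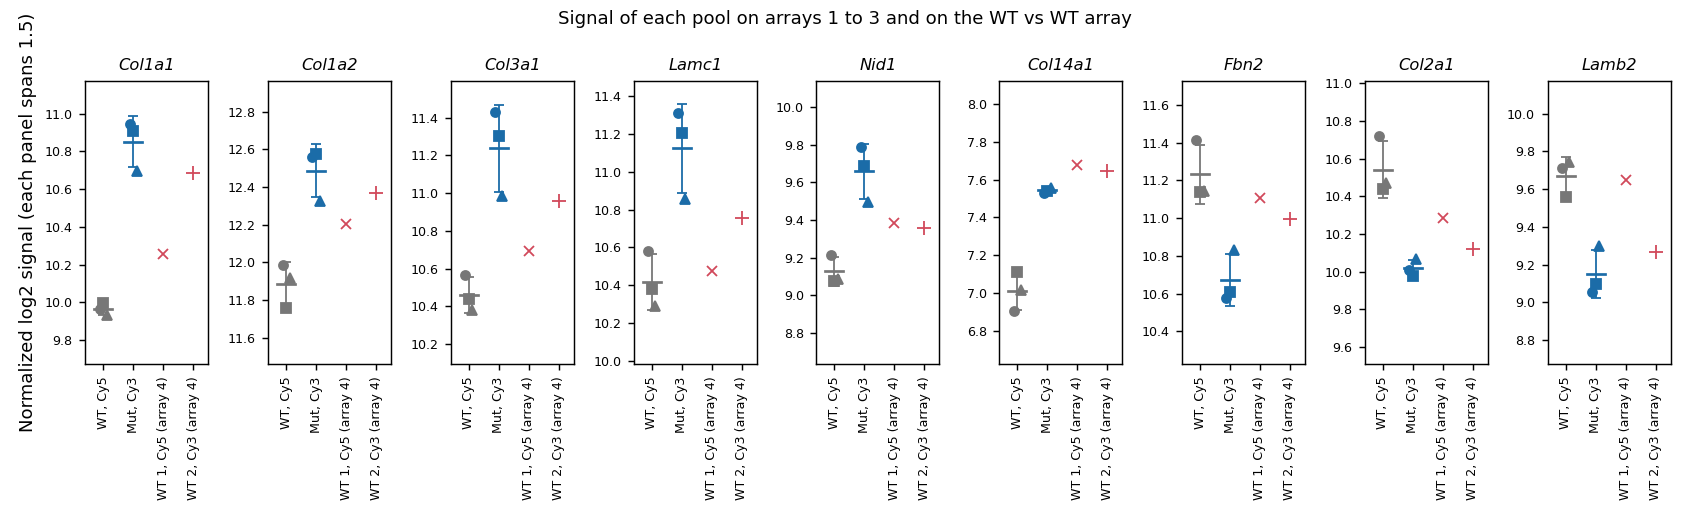
Normalized log2 signal of the brightest probe of 9 matrix genes in each pool (vertical axis, each panel spanning 1.5 log2 units). Grey points are *WT* pools in Cy5 and blue points *Mut* pools in Cy3 on arrays 1 (circle), 2 (square) and 3 (triangle), with bars for the mean and SD of 3 pools, and red marks are *WT* pools 1 and 2 on array 4. The Cy3 mark of *WT* pool 2 lies near the *Mut* points for *Col1a1*, *Col1a2*, *Col3a1*, *Col2a1* and *Lamb2* and between the groups for *Lamc1*, *Nid1* and *Fbn2*. The direction of *Col1a2* and *Nid1* turns with median centring.

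*Lamc1* was the 1 laminin gene called. The *Mut* pools were at 11.31, 11.21 and 10.86 and the *WT* pools at 10.58, 10.38 and 10.29 (probe A_51_P199354). No *Mut* pool overlapped a *WT* pool, the ratios were 0.73, 0.83 and 0.57, and the mean was 0.71 (SE 0.059, n = 3), or 1.63-fold, with an adjusted *P* of 1.17e-05. *WT* pool 2 in Cy3 on array 4 was at 10.75 and *WT* pool 1 in Cy5 at 10.47, a ratio of 0.28, and both stayed below every *Mut* pool. *Lamc1* was also the matrix gene with the highest *Mut* mean relative to *WT* pool 2 in the same dye, at 0.37.

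The laminin beta chains did not follow *Lamc1*. *Lamb2*, the beta chain of the mature glomerular basement membrane, was at 9.06, 9.10 and 9.30 in *Mut* and at 9.71, 9.56 and 9.74 in *WT*. Its ratios were -0.66, -0.46 and -0.45 (mean -0.52, SE 0.058, adjusted *P* = 7.24e-05), which was short of 1.5-fold although the groups of arrays 1 to 3 did not overlap. Between the *WT* pools of array 4 the ratio was -0.38, with *WT* pool 2 in Cy3 at 9.27, within the range of the *Mut* pools. *Lamb1*, the beta chain of early laminins, had ratios of -0.06, 0.10 and 0.07 (mean 0.04, adjusted *P* = 0.647) and turned to -0.51 with median centring. The difference between the log2 ratios of *Lamc1* and *Lamb2* was 1.39, 1.29 and 1.01 on arrays 1 to 3 and 0.66 on the *WT* vs *WT* array. For *Lamc1* and *Lamb1* it was 0.79, 0.72 and 0.50, against 0.28. Of the alpha chains, *Lama1*, which pairs with these chains in the first epithelial basement membrane of the nephron, had ratios of -0.16, -0.04 and 0.03 (mean -0.05, adjusted *P* = 0.512) and turned to 0.10 with the dye term. *Lama2* and *Lama4*, at -0.02 and 0.07, did not pass the adjusted *P* at their brightest probes. A second probe of *Lama2* (-0.28) and the dimmest of *Lama4* (-0.25) did.

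*Nid1*, which links laminin to type IV collagen, was at 9.79, 9.69 and 9.50 in *Mut* and at 9.22, 9.08 and 9.09 in *WT*. The groups did not overlap. Its ratios of 0.57, 0.61 and 0.41 averaged 0.53 (SE 0.057, n = 3, adjusted *P* = 5.54e-05), under 1.5-fold, and it passed the fold minimum at 0.59 without array 3. In contrast to the 4 called genes, the *WT* pools of array 4 were close to each other for *Nid1*, at 9.36 in Cy3 and 9.38 in Cy5, and both were below every *Mut* pool. Its paralog *Nid2* had ratios of 0.02, 0.13 and -0.02 and did not pass the adjusted *P*. The ratio of *Nid1* exceeded that of *Nid2* by 0.55, 0.48 and 0.43 on arrays 1 to 3 and by 0.05 on array 4. *Agrn*, a heparan sulfate proteoglycan of basement membranes, was at -0.12 (adjusted *P* = 0.132) and turned to 0.11 with the dye term.

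The type IV collagens differed little. *Col4a1* and *Col4a2*, the chains found in nearly all basement membranes, had means of 0.24 and 0.20 and passed the adjusted *P* short of 1.5-fold, but both turned with median centring (-0.37 and -0.40). A second probe of *Col4a2*, above background in both channels, had ratios of -0.78, -0.42 and -0.22 (mean -0.48, adjusted *P* = 0.001486), in the direction opposite to the first. *Col4a3*, *Col4a4* and *Col4a5* encode the chains of the mature glomerular basement membrane. *Col4a3* had ratios of -0.02, 0.07 and -0.01 and gave no signal well above background in *Mut* or *WT* on arrays 1 to 3. *Col4a4* was above background throughout, with ratios of -0.02, -0.06 and -0.12 and an adjusted *P* of 0.376. *Col4a5* had ratios of 0.02, -0.01 and -0.03, and its *Mut* channel was above background on 1 of 3 arrays. None of these chains therefore differed detectably between the pools. *Col18a1*, the precursor of endostatin, was at 0.18 and passed the adjusted *P*, with its second probe at -0.11 and a value of -0.46 with median centring.

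Among the other collagens *Col14a1*, which sits on the surface of type I fibrils, had ratios of 0.62, 0.43 and 0.54 (mean 0.53, SE 0.056, adjusted *P* = 4.74e-05). It was at 7.53, 7.54 and 7.56 in the *Mut* pools and at 6.91, 7.11 and 7.02 in the *WT* pools, without overlap. On array 4, however, the *WT* pools were at 7.65 and 7.68, above every *Mut* pool. *WT* pool 1 was labelled with Cy5 on arrays 1 and 4, and for *Col14a1* its level differed by 0.77 between those arrays, more than the difference between *Mut* and *WT*. This was the 1 matrix gene for which *WT* pool 1 differed by over 1.5-fold between its arrays, against 176 of all 16358 named genes. *WT* pool 2, in Cy3 on array 4 and in Cy5 on array 2, did so for 2 genes, *Col1a1* (0.69) and *Col1a2* (0.61). Among all named genes *WT* pool 2 did so for 145. Its difference had the sign of *Mut*/*WT* in 34 of the 42 matrix genes, and in 20 of the 22 past the adjusted *P*. Among all 16358 named genes this was so for 11650. The array 2 level enters both values, so part of this agreement is built in. For *WT* pool 1, in Cy5 both times, the difference had that sign in 28 of the 42 and 19 of the 22. Among all named genes it did so in 9916, and there the array 1 level enters both values. Shares among all genes past the adjusted *P* were not counted. *Col6a1*, *Col6a2* and *Col9a1*, which encode microfibrillar and cartilage collagens, lay between -0.17 and 0.12 and did not pass the adjusted *P*.

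Of the fibronectin, elastic fibre and matricellular genes none was called. At the adjusted *P*, 3 of 8 were higher and 3 lower, against 14.4% and 18.6% of all named genes. The largest difference was a lower level of *Fbn2*, a microfibril protein abundant in embryonic tissue. It was at 10.58, 10.61 and 10.83 in *Mut* and at 11.41, 11.14 and 11.15 in *WT*. The groups did not overlap, but the ratios of -0.84, -0.53 and -0.31 spread widely. Their mean was -0.56 (SE 0.081, adjusted *P* = 0.000389 in limma), short of 1.5-fold, and without array 3 it reached -0.68. The SD of the ratios was 0.26, and an ordinary *t*-test gave an unadjusted *P* of 0.066. The *WT* pools of array 4, at 10.99 in Cy3 and 11.11 in Cy5, were above every *Mut* pool. *Fn1*, the gene of fibronectin, had 3 probes with means of -0.30, -0.27 and -0.16, all below 0, and the first 2 passed the adjusted *P*. *Fbn1*, the other fibrillin, was at -0.19 and turned to 0.29 with the dye term.

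*Tnc* and *Postn* encode matricellular proteins of remodelling mesenchyme. *Tnc* had ratios of 0.52, 0.41 and 0.29 (mean 0.40, adjusted *P* = 0.000356), but the ratio of the *WT* pools was 0.39, so that the dye term left 0.02. Its second probe, also above background, had ratios of -0.54, -0.41 and -0.31, and no direction can be given for *Tnc*. *Postn* had a mean of 0.40 and a ratio of 0.18 between the *WT* pools, and both *Tnc* (-0.01) and *Postn* (-0.04) turned with median centring. *Eln*, which encodes elastin, was at 0.16, and no *Mut* pool gave a signal well above background. *Sparc*, a collagen-binding glycoprotein, was at 0.03, and *Lox*, which crosslinks collagen and elastin, at -0.13. Neither passed the adjusted *P* at its brightest probe.

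None of the integrin subunits was called. *Itgb1*, the beta chain shared by most matrix-binding integrins, had ratios of 0.02, 0.06 and -0.15 (mean -0.02, adjusted *P* = 0.81). Its second probe, above background in both channels, had -0.73, -0.52 and -0.29 (mean -0.51, adjusted *P* = 0.000365), and passed the fold minimum without array 3 at -0.63, so that the probes of *Itgb1* disagreed. *Itga3*, its laminin-binding partner in podocytes and tubules, had ratios of 0.38, 0.21 and 0.13 (mean 0.24, adjusted *P* = 0.00953), with other probes at -0.01 and 0.01 and a value of -0.07 with median centring. *Itga5*, the partner of the fibronectin receptor, was at 0.17 and turned to -0.01 with median centring. *Itgb5* was the steadiest, with -0.25, -0.24 and -0.25 on arrays 1 to 3 (adjusted *P* = 0.00337) and 0.07 between the *WT* pools. On array 4, however, the *WT* pools were at 9.64 in Cy3 and 9.57 in Cy5, within the *Mut* range of 9.46 to 9.67. Both were below the lowest *WT* pool of arrays 1 to 3 (9.71), and in Cy3 alone the *Mut* mean minus *WT* pool 2 was -0.05. *Itgb3* was at -0.34 (adjusted *P* = 0.000611), with no *Mut* pool well above background. Set against the dimmest detected signal it was at least 1.06-fold lower in *Mut*, and the *WT* pools differed by -0.32. *Itga1* (-0.15), *Itga6* (-0.10) and *Itgav* (-0.10) did not pass the adjusted *P*, and *Itgav* was above background in neither channel. Altogether 2 of 8 integrins were higher and 2 lower at the adjusted *P*, against 14.4% and 18.6% of all named genes.

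The *WT* vs *WT* array allowed each ratio to be set against pools of 1 genotype. There the 42 genes ranged around a median of -0.02, and 0 of them differed by over 1.5-fold, while 7, 5 and 2 did so on arrays 1, 2 and 3. The latter counts include called genes. How many of all named genes did so on each array was not counted, so this contrast is not read as particular to the matrix genes. The spread of all genes also varied between arrays. Regardless of sign, the median log2 ratio of the 42 genes was 0.215, 0.1798, 0.1421 and 0.0972 on arrays 1 to 4. For all named genes it was 0.1368, 0.0935, 0.1201 and 0.0978. When limma fitted a dye term for each probe from this array, 0 of the 65 matrix probes were called, where 0.355% of all probes were called higher and 0.423% lower. At an unadjusted *P* under 0.05 this fit left 9 matrix probes higher and 6 lower, 0 of them by over 1.5-fold. Its estimates were 0.46 for *Col1a1*, 0.51 for *Col3a1*, 0.43 for *Col1a2* and 0.43 for *Lamc1*, all lower than without the term. *Nid1* (0.55) and *Col14a1* (0.56) kept their size in that fit, as their *WT* pools had nearly equal signals on array 4. All of these estimates were under 1.5-fold, so none of these genes could be called whatever its adjusted *P*. The dye term rests on 1 array.

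A second comparison used Cy3 alone, with the mean of the *Mut* pools of arrays 1 to 3 set against *WT* pool 2 of array 4. This compares across arrays with 1 *WT* pool, and no test is given. The differences were 0.17 for *Col1a1*, 0.28 for *Col3a1*, 0.12 for *Col1a2*, 0.37 for *Lamc1* and 0.30 for *Nid1*. For *Fbn2* the difference was -0.32, for *Col2a1* -0.10, for *Lamb2* -0.12 and for *Col14a1* -0.11. The 4 called genes were above 0 here, by smaller amounts than on arrays 1 to 3, whereas *Col14a1* was lower. Their *Mut* levels are those that entered the calls, so this is no independent check. The 0.12 of *Col1a2* was less than the 0.22 by which *WT* pool 1 differed between arrays 4 and 1 in Cy5. Over all 42 genes the *Mut* mean minus *WT* pool 2 ran from -0.43 for *Fn1* to 0.37 for *Lamc1*, with a median of -0.01. Of these genes 0 exceeded 1.5-fold, and of all 16358 named genes only 56 did.

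**Figure D3:**
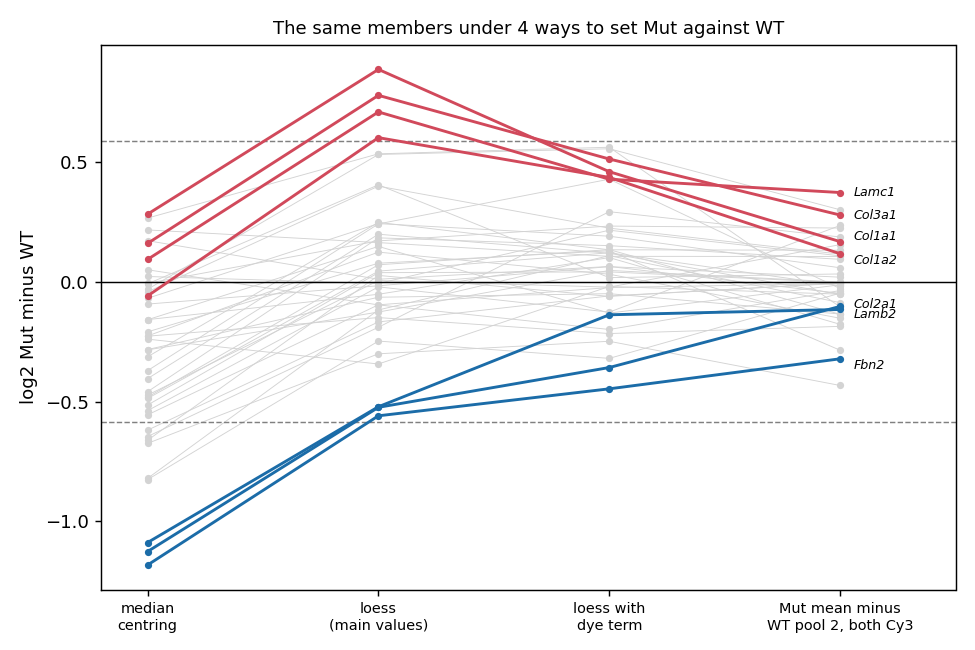
Log2 difference of *Mut* and *WT* (vertical axis) of the 42 matrix genes under 4 treatments of the same arrays, with 1 line per gene and dashed lines at 1.5-fold. Red lines are the 4 called genes, blue lines *Fbn2*, *Col2a1* and *Lamb2*, and grey lines the others. Median centring moves most genes down, and *Col1a2* below 0, while with the dye term and in the same-dye comparison every line lies within 1.5-fold.

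The direction of many genes depended on the scaling. When each array was centred on its median instead of normalized by loess, the median of all named genes was -0.19, and that of the genes above background in both channels was -0.50. The matrix genes were brighter than most (median average log2 signal 8.18 against 7.14), and 34 of the 42 were then below 0. *Col1a1*, *Col3a1* and *Lamc1* were at 0.28, 0.16 and 0.09 and *Col1a2* at -0.06, and 0 matrix probes were called in either direction, with 0 higher and 17 lower at an unadjusted *P* under 0.05, 14 of the latter by over 1.5-fold. Relative to the shift of -0.50, *Col1a1* was at 0.78, *Col3a1* at 0.66, *Lamc1* at 0.60, *Col1a2* at 0.44, *Nid1* at 0.47, *Fbn2* at -0.68, *Col2a1* at -0.62 and *Lamb2* at -0.58. Of the 36 matrix genes above background in both channels, 30 had the same sign relative to that shift as with loess. Both treatments take a shift of bright genes out of the same arrays, so this agreement is no independent check.

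Different probes of a gene could disagree. Of the 19 matrix genes with several probes, 11 had probes of opposite sign. Some of these values were near 0 or not above background, as for *Col4a3* (0.01 and -0.01). *Col5a1*, *Col4a2* and *Tnc* passed the adjusted *P* in both directions, *Col5a1* through a probe (-0.17) with no *Mut* pool well above background. How often probes of all named genes differ in sign was not counted. The range between the probes of a gene had a median of 0.26 and was above 1.5-fold for *Col1a1*, *Col3a1*, *Col4a2* and *Tnc*. For *Col1a1* the second probe had ratios of 0.32, 0.40 and 0.26 (mean 0.33, adjusted *P* = 0.000842) and the third, the dimmest, a mean of -0.02. The second probe of *Col3a1* was above background in neither channel on any array, and its mean was 0.01. With the median over the probes in place of the brightest, *Col1a1* was at 0.33 (adjusted *P* = 0.000858) and *Col3a1* at 0.39 (adjusted *P* = 0.00023), both past the adjusted *P* and short of 1.5-fold. *Col1a2*, *Lamc1*, *Nid1* and *Lamb2* were each measured by 1 probe.

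**Figure D4:**
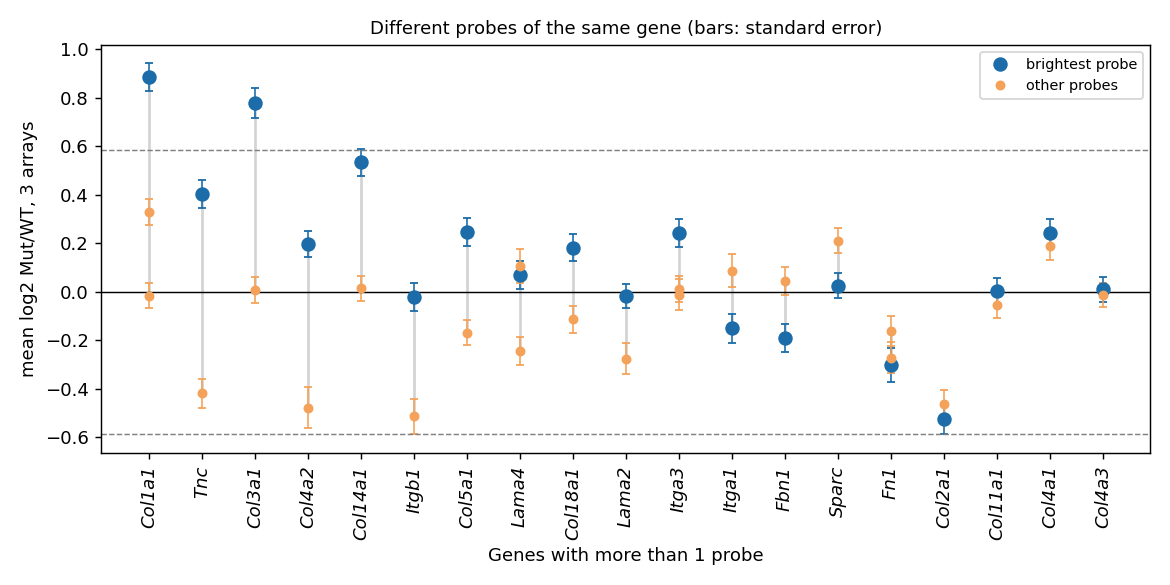
Mean log2 *Mut*/*WT* over 3 arrays (vertical axis, bars are the moderated standard error from limma) of every probe of the 19 matrix genes that have more than 1. Blue points are the brightest probe and orange points the others, joined by a grey line, and dashed lines mark 1.5-fold. *Col1a1*, *Tnc*, *Col3a1* and *Col4a2* have the widest spread, and the probes of *Tnc* lie at 0.40 and -0.42. The directions shown are those with loess and turn for several of these genes with median centring.

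Genes outside the list that belong to the same processes were counted in the same fit. Of 16 other collagens, *Col16a1*, a minor collagen bound to fibrils, was called higher (0.72, 0.71 and 0.78, mean 0.74), with 0.35 between the *WT* pools. Of 11 other laminin and basement membrane genes, *Frem2*, which anchors epithelia to mesenchyme, was called higher (1.02, 0.85 and 0.48, mean 0.79). Of 18 further elastic fibre and matricellular genes, *Fbln5*, which organizes elastic fibres (mean 0.69), and *Ecm1*, a secreted matrix protein (mean 0.96), were called higher. *Itga4*, the alpha chain of a receptor for fibronectin and VCAM1, was the 1 gene called lower among 11 other integrin subunits, with -0.77, -0.71 and -0.79 (mean -0.75) against 0.09 between the *WT* pools. With the dye term *Itga4* (-0.85) and *Ecm1* (0.84) were still called, and *Adamts1*, a metalloprotease, was called as well (-0.61). In Cy3 alone, the *Mut* mean minus *WT* pool 2 was 0.04 for *Itga4*, -0.15 for *Ecm1* and -0.17 for *Adamts1*. Each of the 5 called genes had more than 1 probe, and the median over the probes was smaller in size, from 0.31 for *Frem2* to 0.50 for *Ecm1* among the higher genes and -0.20 for *Itga4*. No gene was called among 16 for collagen processing and crosslinking, where 3 were higher and 3 lower at the adjusted *P*. The same held for 18 genes of adhesion signalling, with 3 higher and 3 lower. At that threshold 14.4% of all named genes were higher and 18.6% lower, so these counts are near the shares of all genes. Of 11 matrix proteases and their inhibitors 0 were higher and 6 lower at the adjusted *P*, and none of these passed the fold minimum.

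Markers of the cells that make these proteins were read on the same arrays. At the adjusted *P* alone, 14.4% of all named genes were higher and 18.6% lower. Of 13 stromal markers 9 were above 0 and 4 below, with 7 higher and 2 lower at the adjusted *P*. *Pdgfrb*, a receptor of stromal and perivascular cells, was called at 0.60, and *Tcf21* (0.53) and *Dcn* (0.37) passed the adjusted *P*, while *Foxd1*, the transcription factor that defines the cortical stroma, was at -0.30 and *Lum* at -0.42. The mean level of the stromal list was 9.23, 9.25 and 9.14 in *Mut* and 9.12, 9.05 and 9.07 in *WT* pools 1, 2 and 3, and 9.13 and 9.11 in Cy3 and Cy5 on array 4. Its part in the values of the fibrillar collagens was not tested. Of 12 nephron progenitor markers 10 were above background in both channels and 9 were below 0. None was called, with 1 higher and 6 lower at the adjusted *P*. *Six2* itself was at -0.18. Of 10 endothelial markers 0 were called and 1 was lower at the adjusted *P*, and *Pecam1*, *Tek*, *Tie1* and *Erg* were above background in neither channel. Of 10 ureteric bud markers 0 passed the adjusted *P*, and of 3 macrophage markers 0 were above background in both channels. Of 14 markers of the differentiating nephron 10 were above 0 and 2 called higher. Their mean level was 7.41, 7.41 and 7.42 in *Mut* and 7.24, 7.23 and 7.18 in *WT* on arrays 1 to 3, but the *WT* pools of array 4 were at 7.451 in Cy3 and 7.405 in Cy5, as high as the *Mut* pools. In Cy3 alone 5 of these markers were higher and 9 lower in *Mut*. Of 8 erythroid markers 7 were above 0, with *Hba-a1* called at 1.17. Their mean level was between 7.09 and 7.14 in *Mut* and between 6.72 and 6.88 in *WT* on arrays 1 to 3, and at 7.14 and 7.13 in the *WT* pools of array 4, again as high as in *Mut*. In Cy3 alone 3 were higher and 5 lower.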

How the data were processed

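RNA of pooled sorted cells was hybridized to 4 Agilent mouse arrays of 2 colours each, all on 1 slide, and grouped by the GEO labels. The files deposited by the authors come from Feature Extraction 10.7.3.1 (Agilent) and hold the intensity of each spot and its local background on a linear scale, as well as the log10 ratio of red over green after that program's background subtraction and dye normalization. All 180072 values of a deposited series table equalled these log10 ratios (tolerance 1e-06). The study's GeneSpring values were not analysed here.

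Median intensities were corrected with normexp (offset 50) and normalized by loess within arrays in limma 3.58.1 (R 4.3.3). Control spots and 122 to 162 outlier spots per array were left out, spots of a probe were averaged, and ratios were turned to Cy3 over Cy5. Channel levels were normalized between arrays with Aquantile. The 3 *Mut*/*WT* ratios of each probe were tested against 0 (lmFit, eBayes) with Benjamini-Hochberg adjustment over 41174 probes, and the thresholds followed the study's methods. The fit was tested on simulated data. The median signal was 65.5 to 82 in Cy3 and 84 to 92 in Cy5, over a background of 16 to 17 and 50, no spot was saturated, and the number of arrays limits precision. *P* values and SE from limma rest on the spread between these arrays, moderated for each probe towards the spread of all probes. Each array pairs 2 pools, whose deviations from the group means correlated at 0.388, 0.431 and 0.32.

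Symbols came from a RefSeq table of GRCm38.p6, matched by accession for 22951 probes (55.7%) and used for names only. No coordinates or sequences are printed, since none of the files used here holds the probe sequences or a genome of the array's build. All listed genes are accounted for. Values per array are given for genes with a called probe, for genes past the adjusted *P* with a log2 change over 0.4 and for glomerular and nephron basement membrane genes. The listed genes, the lists of related genes and the marker lists (nephron progenitor, stroma, endothelium, ureteric bud, differentiating nephron, erythroid, macrophage) were chosen with earlier results of these data known. A bound sets the mean of the brighter channel against the dimmest signal above background. Alternatives were normexp without the offset, median centring, a dye term, deposited log ratios, leaving out dim probes, unpaired channels, leaving out each array, the methods' *t*-test, no fold minimum and the median over a gene's probes.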

Additional observations from a re-analysis of the deposited data

How the results depend on the processing

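The 4 matrix probes called, all higher in *Mut*, were also 4 with only probes above background, with unpaired channels (no replicate block) and with the methods' *t*-test before adjustment. There were 0 called with normexp without the offset, with median centring, with the dye term and with the methods' *t*-test after adjustment, so that 0 were then called higher. Without the offset the changes of *Col1a1* (0.95), *Col3a1* (0.82), *Lamc1* (0.75) and *Col1a2* (0.61) were as large as before and only the adjusted *P* (0.112 to 0.115) was lost, with 6 probes higher and 4 lower past 1.5-fold at an unadjusted *P* under 0.05. The deposited log ratios called 5, with 3 higher (*Col1a1*, *Nid1*, *Col14a1*) and 2 lower (*Itgb3* and a dim probe of *Lama2*). There *Col3a1* (0.87, adjusted *P* = 0.0507), *Lamc1* (0.79, 0.0517) and *Col1a2* (0.60, 0.0812) kept changes over 1.5-fold and missed the adjusted *P*. With no fold minimum 33 were called. Leaving out 1 array gave between 3 and 8 called (3 to 5 higher, 0 to 3 lower). Without array 2 *Col1a2* was lost, and without array 3 *Nid1*, *Fbn2* and the second probes of *Itgb1* and *Col4a2* were added.

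Directions turned with median centring for *Col1a2* (-0.060), *Col5a1* (-0.31), *Col5a2* (-0.16), *Col11a1* (-0.47), *Col4a1* (-0.37), *Col4a2* (-0.40), *Col4a5* (0.021), *Col18a1* (-0.46), *Col6a1* (-0.23), *Col6a2* (-0.21), *Lama4* (-0.48), *Lamb1* (-0.51), *Nid1* (-0.032), *Nid2* (-0.49), *Tnc* (-0.0092), *Sparc* (-0.66), *Postn* (-0.043), *Itga3* (-0.069), *Itga5* (-0.0071) and *Itgav* (0.049). With the dye term they turned for *Col5a2* (-0.13), *Col11a1* (-0.023), *Col4a5* (0.21), *Lama1* (0.10), *Lama2* (0.062), *Agrn* (0.11), *Fbn1* (0.29), *Sparc* (-0.061) and *Lox* (0.047). The median over a gene's probes took *Col1a1* (0.33) and *Col3a1* (0.39) below 1.5-fold and turned *Col11a1* (-0.025), *Col4a2* (-0.14), *Col4a3* (-0.0017) and *Tnc* (-0.0075). Normexp without the offset turned *Col4a3* (-0.0080) and *Itgb1* (0.013), and the deposited log ratios *Itgb1* (0.048). Without array 2 *Col11a1* (-0.034 to 0.025 over the arrays left out) and *Col4a3* (-0.018 to 0.026) turned, and without array 3 *Col4a5* (-0.020 to 0.0060) and *Itgb1* (-0.064 to 0.042). The cause was not tested. Probes near background set what can be seen here, as 6 of the 42 genes were not above background in both channels on every array.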
